A study of Mus musculus with 16 samples.

Results

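The genes described here are Bmp4, which encodes a secreted bone morphogenetic protein (BMP), and 7 genes known as transcriptional targets of BMP signalling: Id1, Id2, Id3, Id4, Smad6, Msx1 and Msx2. They were taken by symbol from the 55291 genes of the deposited table, and all 8 were present there and were abundant enough to be tested. The 16 libraries were made from RNA of E14Tg2a, a mouse embryonic stem cell line of strain 129/Ola grown without feeder cells. In all lines the endogenous CTCF, a zinc finger protein that shapes chromosome loops, carried an auxin-inducible degron. The auxin analogue indole-3-acetic acid (500 µM) was added in all groups to destroy it, and doxycycline (1 µg/ml) to switch on a CTCF transgene, for 2 days by the protocol. That transgene carried the R342C, K365T or Q418R change in its DNA-binding domain in the 3 mutant lines and was wild type in the WT line, so the controls too lived on transgenic CTCF. Each line was sampled after 3 days without leukemia inhibitory factor (LIF), CHIR99021 and PD0325901, called no LIF here, and in medium that still held LIF, CHIR99021 (3 µM) and the MEK inhibitor PD0325901 (1 µM), called LIF. Serum was present throughout. The 8 groups are thus R342C, K365T, Q418R and WT in no LIF, and the same lines in LIF, with 2 libraries each. Each genotype is 1 line, so a difference between genotypes cannot be told apart from a difference between lines. The labels do not say whether replicates came from separate cultures, and p-values measure only the spread between these libraries.

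BMP ligands bind pairs of type I and type II receptor kinases, which phosphorylate SMAD1, SMAD5 and SMAD9. These join SMAD4, enter the nucleus and switch on target genes, of which the Id genes are among the most direct. Id proteins have a helix-loop-helix domain but no DNA-binding region, and by pairing with E proteins they keep these and their partners from DNA. In mouse embryonic stem cells, BMP4 or serum together with LIF is known to sustain self-renewal, in part through Id proteins, and BMP activity is known to hold back neural differentiation.

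Promoter sequences of the targets are shown because SMAD complexes are known to bind a GC-rich element, GGCGCC, and the shorter element GTCT, and the members differ in carrying them. Windows of 250 bases before the RefSeq start (build GRCm38.p6) were found for 7 of the 8 members. No window was found for Id1, so the motif counts do not cover it. Capitals mark GGCGCC, and GTCT on either strand (AGAC on the strand shown). The Id2 line stops before the first annotated UTR base (GENCODE M21). The windows of Id2, Id3 and Msx2 lie within the annotated genes, and those of Id3 and Msx2 begin in UTR and are not printed. They are counted below with the others.
Id2, chr12:25096254-25096342, minus strand: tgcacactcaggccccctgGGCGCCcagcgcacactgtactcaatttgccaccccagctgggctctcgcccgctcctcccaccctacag
Id4, chr13:48260866-48261115, plus strand: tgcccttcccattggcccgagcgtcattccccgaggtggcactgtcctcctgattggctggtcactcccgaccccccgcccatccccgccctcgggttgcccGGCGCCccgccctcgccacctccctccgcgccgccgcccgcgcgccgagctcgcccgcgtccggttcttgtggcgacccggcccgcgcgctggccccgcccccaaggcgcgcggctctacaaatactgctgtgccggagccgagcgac
Smad6, chr9:64022060-64022309, minus strand: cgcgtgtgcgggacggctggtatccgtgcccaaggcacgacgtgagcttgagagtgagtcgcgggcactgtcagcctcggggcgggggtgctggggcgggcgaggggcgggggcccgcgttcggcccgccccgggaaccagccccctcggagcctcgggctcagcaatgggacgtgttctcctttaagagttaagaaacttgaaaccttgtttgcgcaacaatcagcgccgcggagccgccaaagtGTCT
Msx1, chr5:37824586-37824835, minus strand: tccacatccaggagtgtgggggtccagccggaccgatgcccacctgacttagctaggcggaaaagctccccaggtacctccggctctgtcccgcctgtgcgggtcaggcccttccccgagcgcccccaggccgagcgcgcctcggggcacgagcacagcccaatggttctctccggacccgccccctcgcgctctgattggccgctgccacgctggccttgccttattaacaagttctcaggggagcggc
GGCGCC stood in the whole windows of 2 of the 7 members, Id2 and Id4, against 9.59% of 32851 mouse promoter windows. GTCT or AGAC stood in 5 of 7, against 82.9% of all windows, and the E-box CANNTG, the element of E proteins, in 4 of 7, against 66.2%. Both strands were searched, and matches of different motifs may overlap. A match is a description, not a shown binding site. The windows were GC-rich, with 61.6% to 75.6% GC against a median of 52.4% over all promoters. Id2 and Id4, which share the GGCGCC letters, had differences between media of opposite sign in 3 of the 4 lines, and that of Id4 passed the threshold in 1 of them.

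Depth ranged from 19721363 to 31935381 recovered reads a library. Ctcf itself, whose mRNA is fed by the degron allele and the transgene alike and so does not check the protein, had 5292 to 8585 normalised counts. Marker levels followed the media labels: summed TPM (a length-corrected level) of 6 naive stem cell markers was 243 to 654 in no LIF and 2878 to 4440 in LIF, and that of 4 formative or primed markers was 334 to 842 in no LIF and 26.4 to 59.0 in LIF. The 4 general pluripotency markers summed to 1448 to 1747 TPM in no LIF and 1332 to 1736 TPM in LIF. Structural RNA genes took 6.89% of the normalised counts of WT no LIF replicate 2, against 2.28% to 5.06% in the other 15 libraries, and results that this library decides are also given without it. In bulk RNA, fewer cells of a type and less RNA per cell cannot be told apart.

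Removing LIF and the 2 inhibitors changed most of the 8 genes, in both directions. Id1, Id2, Id3 and Msx1 rose in all 4 lines and Bmp4 fell in all 4, each past the threshold given below. Msx2 was lower in all 4 lines and passed the threshold in 3, and Smad6 was higher in all 4 and passed it in 3. Id4, unlike the other Id genes, passed the threshold as higher in no line. In limma's fit over all 17757 tested genes, with Benjamini-Hochberg adjusted p under 0.05 as the threshold, no LIF against LIF gave 5 members higher and 2 lower in R342C, 5 higher and 1 lower in K365T, 4 higher and 3 lower in Q418R, and 5 higher and 2 lower in WT. Of all tested genes, 47.2% passed the same threshold in R342C (23.3% higher and 23.9% lower), 44.7% in K365T (21.6% higher and 23.0% lower), 46.5% in Q418R (23.0% higher and 23.5% lower) and 48.8% in WT (23.8% higher and 24.9% lower). The members' median log2 difference, no LIF minus LIF, was 1.33 in R342C, 1.33 in K365T, 1.16 in Q418R and 1.42 in WT, where the median of all tested genes was -0.002 in R342C, -0.005 in K365T, -0.02 in Q418R and -0.01 in WT. The members were chosen with earlier results of these data known, so these counts and medians are a description. All log2 differences are on the scale log2(normalised count + 4), which understates the change of low genes.

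**Figure D1:**
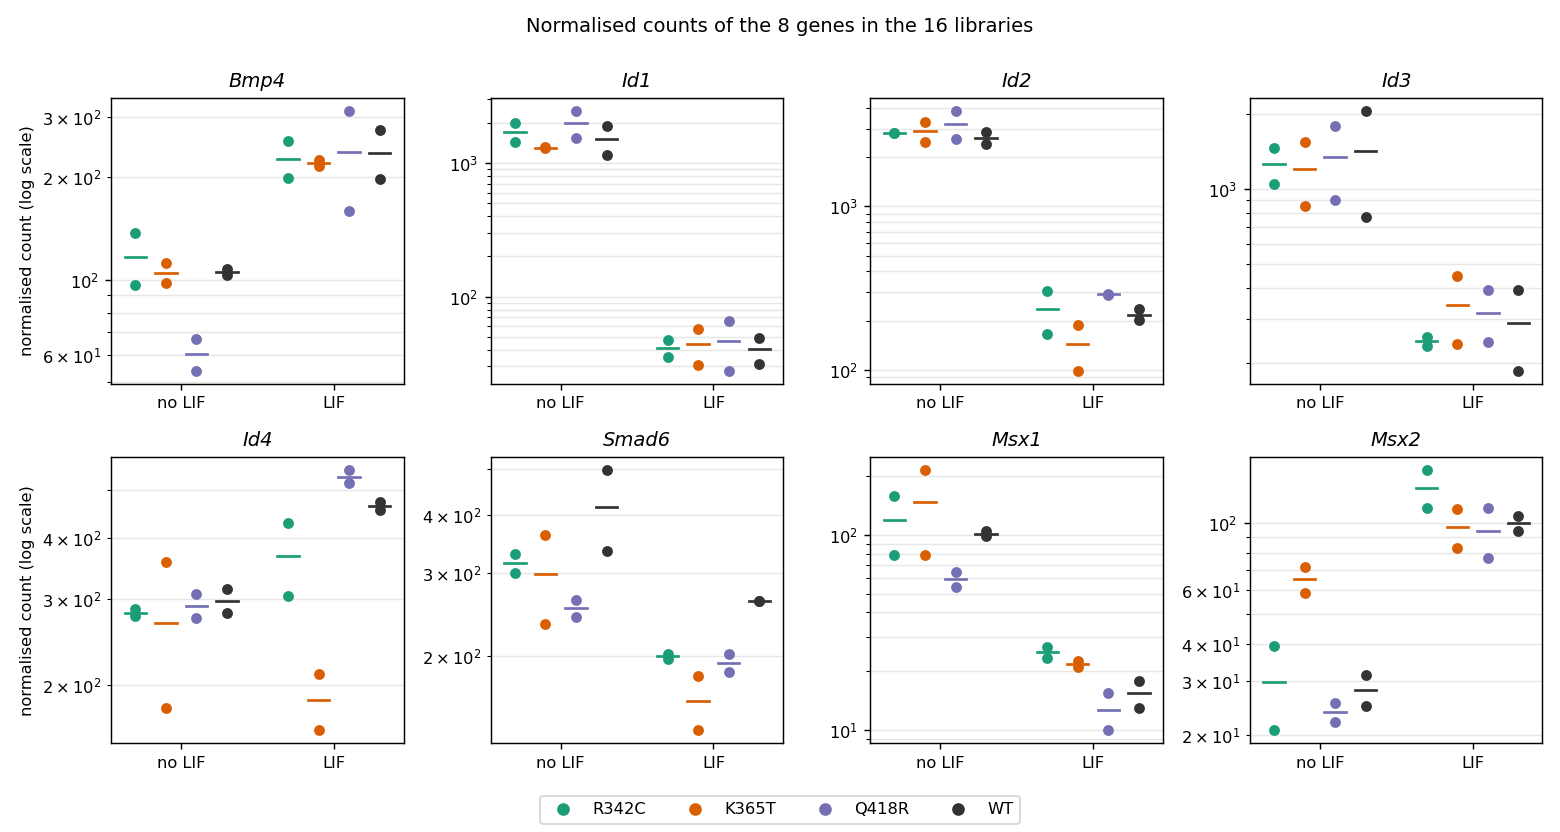
Normalised counts (log axis) of the 8 genes in each of the 16 libraries, by line, with no LIF left of LIF; points are libraries and the bar is the mean of the 2. Id1, Id2, Id3 and Msx1 lie higher in no LIF in every line, Bmp4 lies lower, and Id4 in K365T and LIF lies at 161 and 210.4, under the LIF libraries of the other 3 lines.

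Bmp4, the ligand of the set, lies on chromosome 14 (46383520 to 46390669, minus strand, mm10). It had 96.4 and 137 normalised counts in R342C no LIF, against 198 and 255 in R342C LIF. In K365T it had 97.99 and 112 in no LIF, against 224 and 216 in LIF, and in WT 103 and 108 in no LIF, against 274 and 198 in LIF. In Q418R it had 67.1 and 54.0 in no LIF, against 313 and 159 in LIF. All 8 no LIF libraries, at 54.0 to 137, lay under all 8 LIF libraries, at 159 to 313, and the lowest values were the 2 of Q418R in no LIF. The log2 difference was -0.94 ± 0.30 in R342C (SE, adjusted p = 0.0170 by limma), -1.04 ± 0.30 in K365T (0.0103), -1.83 ± 0.30 in Q418R (0.000149) and -1.11 ± 0.30 in WT (0.00629), with 2 libraries a group. The calls in R342C, K365T and WT did not hold in every fit with 1 library left out, where a group has 1 library. The difference was -0.70 without R342C no LIF replicate 1 and -0.77 without R342C LIF replicate 2. It was -0.95 without K365T no LIF replicate 1, -1.02 without K365T LIF replicate 1 and -0.88 without WT LIF replicate 1. A pair of genes annotated on the opposite strand over Bmp4, Gm15217 and Gm15222, reached at most 15.5 and 21.4 normalised counts, and whether counting used strand is not given in the sources used here.

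Id1 gave the largest change of the 8. It lies on chromosome 2 (152736251 to 152737410, plus strand) and had 1429.9 and 2006 normalised counts in R342C no LIF, against 35.4 and 47.5 in R342C LIF. K365T had 1323 and 1286 in no LIF, against 31.0 and 57.5 in LIF. Q418R had 2464 and 1530.0 in no LIF, against 65.5 and 27.9 in LIF, and WT had 1878 and 1140.3 in no LIF, against 49.1 and 31.3 in LIF. No library of one medium came near the other: the lowest no LIF value was 1140.3 and the highest LIF value 65.5. The ratio of group means was 41.5 in R342C, 29.5 in K365T, 42.8 in Q418R and 37.5 in WT. The log2 differences were 5.24, 4.82, 5.37 and 5.08 in the same lines, each ± 0.39 (SE, n = 2 and 2), with limma adjusted p of 8.77e-08, 2.32e-07, 7.23e-08 and 1.11e-07.

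Id2, on chromosome 12 (25093799 to 25097140, minus strand), was the second in size. It had 2818 and 2836 normalised counts in R342C no LIF, against 302 and 166 in R342C LIF, and 3282 and 2496 in K365T no LIF, against 188 and 98.5 in K365T LIF. Q418R had 3860.4 and 2581 in no LIF, against 292 and 286 in LIF, and WT had 2849 and 2402 in no LIF, against 234 and 200.98 in LIF. The media did not overlap in any line, and the 2 K365T libraries held the lowest and the third lowest of the 8 LIF values. Group means stood 12.1-fold higher in no LIF in R342C, 20.2-fold in K365T, 11.2-fold in Q418R and 12.1-fold in WT. The log2 differences were 3.63, 4.35, 3.43 and 3.57, each ± 0.29, with adjusted p of at most 3.74e-07 (limma).

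Id3, on chromosome 4 (136143497 to 136145755, plus strand), rose less and varied more between replicates. It had 1039.9 and 1458 normalised counts in R342C no LIF, against 254 and 235 in R342C LIF, and 849 and 1539.9 in K365T no LIF, against 239 and 445 in K365T LIF. Q418R had 1785 and 900.5 in no LIF, against 391 and 243 in LIF. WT had 2053 and 767 in no LIF, against 390.2 and 186 in LIF. The 2 WT no LIF libraries were the highest and the lowest of the 8 in that medium, yet all 8 stood above every LIF library. The log2 difference was 2.32 in R342C (adjusted p = 0.00121), 1.80 in K365T (0.00758), 2.03 in Q418R (0.00325) and 2.20 in WT (0.00171), each ± 0.49 by limma. Without K365T no LIF replicate 2 or K365T LIF replicate 1, the K365T call ended at adjusted p = 0.0725 or 0.088. Without WT no LIF replicate 2 the WT value was 2.91.

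Id4, on chromosome 13 (48261228 to 48266026, plus strand), was not called higher in any line and was called lower in 1. The genes annotated on its opposite strand, A330033J07Rik and Gm49291, reached at most 2.20 normalised counts. It had 286 and 276 normalised counts in R342C no LIF, against 429 and 304 in R342C LIF, and 307 and 274 in Q418R no LIF, against 517 and 549.6 in Q418R LIF. WT had 280.4 and 314 in no LIF, against 473 and 456 in LIF. In these 3 lines both no LIF libraries lay under both LIF libraries, narrowly so in R342C. K365T differed from that order, with 356 and 179 in no LIF, against 161 and 210.4 in LIF, and its media overlapped. The change was -0.87 ± 0.26 on the log2 scale in Q418R, the one line past the threshold (limma adjusted p = 0.0133, 0.0769 without Q418R no LIF replicate 2 and 0.0700 without Q418R LIF replicate 2). It was -0.64 in WT (adjusted p = 0.0560, 0.0397 by DESeq2, 0.0205 with only its 2 groups in the fit, and 0.0493 with the replicate number as a block within each line), -0.36 in R342C (0.282) and 0.45 in K365T (0.185). The K365T value was 0.94 (adjusted p = 0.0052) without its no LIF replicate 2 and -0.042 (0.910) without its no LIF replicate 1.

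**Figure D2:**
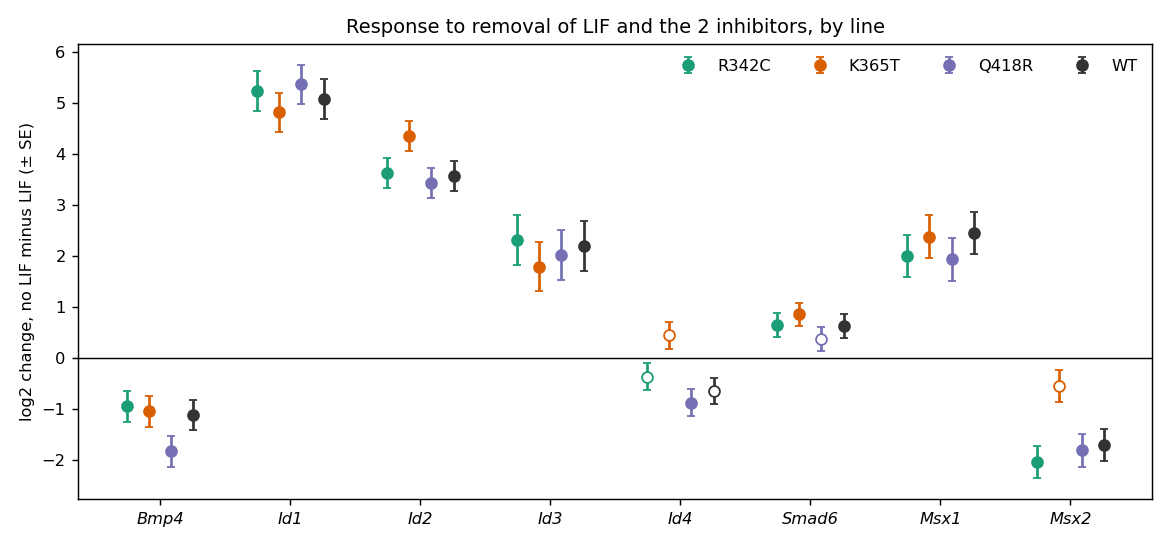
Log2 difference, no LIF minus LIF, of each gene in each line (point, with its standard error from limma as the bar); filled points are past an adjusted p of 0.05 and open points are not. Id1 lies highest at 4.82 to 5.37, Id4 is open in R342C, K365T and WT, and Msx2 in K365T lies at -0.54 where the other 3 lines lie at -1.70 to -2.04.

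The make-up of the Id family differed between media. On the TPM scale, which corrects for length, the 4 Id genes summed to 268 to 642 TPM in no LIF (median 426, 8 libraries) and to 34.4 to 64.3 TPM in LIF (median 52.0, 8 libraries). Id1 made up 36.5% to 45.8% of that sum in no LIF and 5.73% to 12.8% in LIF. Id2 made up 29.2% to 44.1% in no LIF and 10.3% to 30.4% in LIF, while Id3 made up 15.5% to 28.6% in no LIF and 31.3% to 63.2% in LIF. Id4 was 1.53% to 3.30% of the sum in no LIF and 13.9% to 35.7% in LIF. The shares of Id1, Id3 and Id4 did not overlap between media: that of Id1 was higher in no LIF and those of Id3 and Id4 were lower. Id3 held the largest share in 6 of the 8 LIF libraries. The E proteins Tcf3, Tcf4 and Tcf12, which Id proteins bind, summed to 81.5 to 143 TPM in no LIF and 114 to 139 TPM in LIF, so the Id sum exceeded the E protein sum in every no LIF library and lay under it in every LIF library. These shares describe mRNA and have no test. The 5 neuroectoderm markers, Sox11 among them, also differed without overlap, with sums of 62.0 to 97.9 TPM in no LIF and 24.6 to 42.5 TPM in LIF, and their part in the Id values was not tested. The 5 primitive endoderm markers summed to 12.9 to 20.6 TPM in no LIF and 8.56 to 15.1 TPM in LIF, and the 5 trophectoderm markers to 12.03 to 29.1 TPM in no LIF and 17.1 to 24.9 TPM in LIF.

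**Figure D3:**
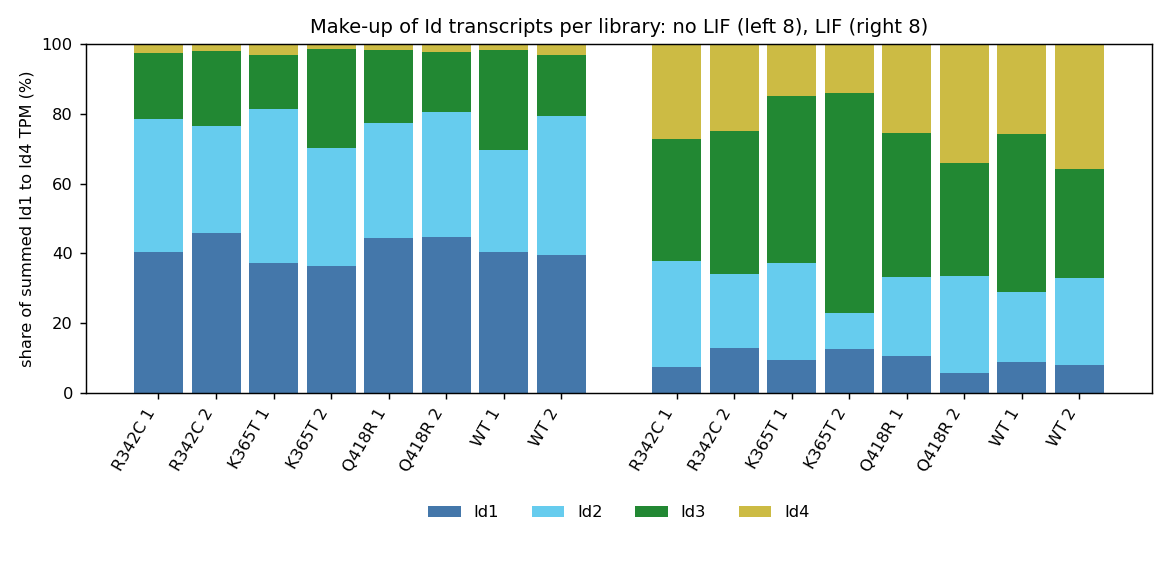
Share of summed TPM (percent) of Id1, Id2, Id3 and Id4 in each of the 16 libraries, the 8 no LIF libraries on the left and the 8 LIF libraries on the right. Id1 fills 36.5% to 45.8% of each no LIF bar and 5.73% to 12.8% of each LIF bar, and Id4 shrinks to at most 3.30% in no LIF.

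Smad6 encodes an inhibitory SMAD that binds activated BMP receptors and SMAD1, and is induced by the pathway it limits. It lies on chromosome 9 (63953076 to 64022059, minus strand). It had 329.7 and 300.3 normalised counts in R342C no LIF, against 197 and 202 in R342C LIF, and 362 and 234 in K365T no LIF, against 181 and 139 in K365T LIF. Q418R had 242 and 263 in no LIF, against 185 and 201.1 in LIF, and WT had 335 and 497 in no LIF, against 262 and 261 in LIF. No LIF libraries lay above LIF libraries in each line, with the WT line highest in both media on average. On the log2 scale Smad6 differed by 0.65 in R342C (limma adjusted p = 0.0323), 0.86 in K365T (0.00729), 0.38 in Q418R (0.197) and 0.63 in WT (0.0346), each ± 0.23. These calls did not hold in every fit with 1 library left out, where a group has 1 library. The R342C call ended without any 1 of its 4 libraries, at differences of 0.58 to 0.71. The WT call ended without WT no LIF replicate 2 (difference 0.35) or either WT LIF library (0.63 each). That in K365T ended without K365T no LIF replicate 1 (0.55) or K365T LIF replicate 2 (0.67). With all 16 libraries and no filter on low genes, the calls in R342C (limma adjusted p = 0.0506) and WT (0.0545) ended. With only the 2 groups of the contrast in the fit, those in K365T (0.0592) and WT (0.0524) ended. On TPM, Q418R passed (limma, 0.0487). By edgeR and DESeq2 the calls were as by limma.

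Msx1 and Msx2 encode closely related homeobox repressors that BMP induces in neural crest, limb and tooth. Msx1, on chromosome 5 (37820485 to 37824583, minus strand), had 79.2 and 158 normalised counts in R342C no LIF, against 26.7 and 23.3 in R342C LIF. K365T had 79.0 and 214 in no LIF, against 21.0 and 22.6 in LIF, Q418R had 64.9 and 54.0 in no LIF, against 15.5 and 9.96 in LIF, and WT had 98.6 and 104 in no LIF, against 17.9 and 12.97 in LIF. All no LIF values exceeded all LIF values, and 2 libraries, K365T no LIF replicate 2 and R342C no LIF replicate 2, stood highest. Msx1 differed by 2.00 in R342C on the log2 scale (limma adjusted p = 0.00110), 2.38 in K365T (0.000297), 1.94 in Q418R (0.00144) and 2.45 in WT (0.000206), each ± 0.42. In those 2 libraries the 7 mesoderm markers also summed highest, 33.5 TPM in K365T no LIF replicate 2 against 10.7 in its replicate 1, and 16.9 TPM in R342C no LIF replicate 2 against 8.70 in its replicate 1, where the other 12 libraries had 7.45 to 13.1 TPM. The 4 neural crest markers summed to 1.20 to 2.54 TPM in no LIF and 0.092 to 0.833 TPM in LIF, and 6 fibroblast markers to 23.6 to 43.0 TPM in no LIF, where Lum was at 0 in all libraries, and 3.07 to 8.38 TPM in LIF. The part of such cells in the Msx1 values was not tested.

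Msx2, on chromosome 13 (53466884 to 53473074, minus strand), moved opposite to Msx1. It had 20.7 and 39.3 normalised counts in R342C no LIF, against 113 and 149.8 in R342C LIF, and 22.0 and 25.5 in Q418R no LIF, against 112 and 76.7 in Q418R LIF. WT had 24.9 and 31.4 in no LIF, against 106 and 94.0 in LIF. K365T had 59.0 and 71.8 in no LIF, against 82.9 and 112 in LIF, the 2 highest no LIF values of any line. Its log2 differences were -2.04 in R342C (limma adjusted p = 0.000104), -1.81 in Q418R (0.000297), -1.70 in WT (0.000473) and -0.54 in K365T (0.189), each ± 0.32. On the TPM scale Msx1 had a median of 3.57 in no LIF and 0.76 in LIF, and Msx2 1.06 in no LIF and 3.99 in LIF, so the more abundant of the pair differed between media.

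By median TPM, the order of the members in no LIF was Id1 (176), Id2 (153), Id3 (92.8), Smad6 (12.98), Id4 (9.73), Bmp4 (5.66), Msx1 (3.57) and Msx2 (1.06). In LIF it was Id3 (17.5), Id4 (13.9), Bmp4 (12.5), Id2 (10.4), Smad6 (7.80), Id1 (4.45), Msx2 (3.99) and Msx1 (0.76). The ranges over 8 libraries overlapped for all neighbours in these orders except 2 pairs: Id3 and Smad6 in no LIF, at 46.3 to 151 and 10.1 to 16.8 TPM, and Msx2 and Msx1 in LIF, at 2.90 to 5.87 and 0.399 to 1.10 TPM. Smad6 and Id4 in no LIF overlapped at 10.1 to 16.8 and 6.67 to 11.6 TPM.

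The second question was whether the lines with a mutant CTCF differed from WT in these genes, and in the fit without a replicate block they did in 2 of 48 comparisons, both in K365T. Id4 was lower in K365T than in WT in LIF, with 161 and 210.4 normalised counts in K365T against 473 and 456 in WT. The log2 difference was -1.32 ± 0.26 (adjusted p = 0.00631 by limma, 0.00800 by edgeR and 6.25e-05 by DESeq2), and without K365T LIF replicate 1 it was -1.13 (limma, 0.0563). Msx2 was higher in K365T than in WT in no LIF, with 59.0 and 71.8 in K365T against 24.9 and 31.4 in WT. That difference was 1.11 ± 0.32 (adjusted p = 0.0316 by limma, 0.0350 by edgeR and 0.0157 by DESeq2). It was 0.98 without K365T no LIF replicate 2, 0.96 without WT no LIF replicate 1 and 1.26 without WT no LIF replicate 2. None of these fits, with 1 library in a group, passed the threshold. The call also ended with only the 2 groups of the comparison in the fit (limma adjusted p = 0.22) and with no filter on low genes (0.0590).

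The background differed between lines: 11.1% of tested genes passed the threshold between K365T and WT in LIF, and 14.7% in no LIF. In Q418R it was 4.25% in LIF and 6.15% in no LIF, and in R342C 0.417% in LIF and 0.479% in no LIF. Against these, K365T had 1 of 8 members called in each medium, a share near its background (4.66% of tested genes were lower in LIF and 7.38% higher in no LIF), and Q418R and R342C had 0 of 8 in each medium. At an unadjusted p under 0.05 by limma, K365T had 3 members in LIF and 1 in no LIF. Q418R had 0 in LIF and 2 in no LIF, and R342C had 0 in both media. The share of all tested genes at that unadjusted cutoff was not taken, so such counts, here and below, have no background. At the adjusted threshold, DESeq2 called 1 member in Q418R in no LIF, and the share of all tested genes that it called was not taken. Same-numbered libraries deviated together between R342C and K365T and between Q418R and WT. With the replicate number as a block within these 2 pairs of lines, an alternative chosen after the data were seen, 3 of 8 members passed in K365T in LIF, against 19.2% of tested genes in that fit, and 2 of 8 in Q418R in no LIF, against 14.8%. The 4 added calls were Smad6 in both comparisons, Id2 in K365T in LIF and Bmp4 in Q418R in no LIF. K365T and WT lie in different pairs. A deviation shared within a pair does not cancel between them, so that fit can give too small a p there. Neighbours were taken as the genes on the same chromosome within 5 Mb and with a mean of at least 100. Those of Id4 had a median difference of -0.02 (41 genes, K365T in LIF) and those of Msx2 of -0.09 (72 genes, K365T in no LIF). Those of Msx1, which was not called, had medians of -0.55 in LIF and -0.48 in no LIF in Q418R against WT (53 genes). Msx1 itself was -0.23 and -0.74 there, and the part of its neighbourhood was not tested.

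**Figure D4:**
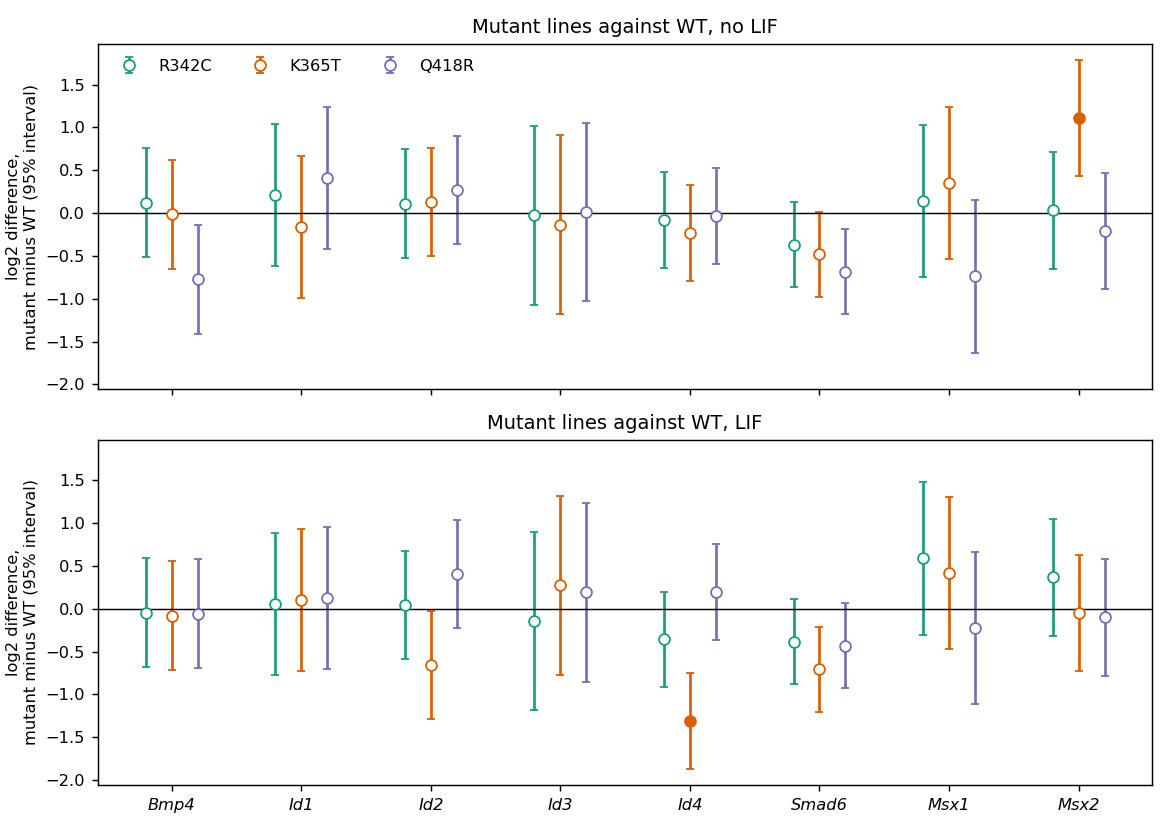
Log2 difference of each gene between each mutant line and WT (point, with its 95% interval from limma as the bar), in no LIF and in LIF; filled points are past an adjusted p of 0.05 and open points are not. The 2 filled points are Msx2 in K365T no LIF at 1.11 and Id4 in K365T LIF at -1.32, and Smad6 lies under 0 in all 6 comparisons.

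Smad6 was under WT in all 6 comparisons of a mutant with WT, which share their WT libraries, by -0.37 to -0.71 on the log2 scale, and none passed the threshold in limma's fit without a replicate block. The largest were K365T in LIF, at -0.71 ± 0.23 (limma adjusted p = 0.0639, 95% interval -1.20 to -0.21, 0.0196 with the block within pairs of lines, DESeq2 0.0397), and Q418R in no LIF, at -0.69 ± 0.23 (limma 0.0956, interval -1.18 to -0.19, 0.0291 with that block, DESeq2 0.0436). Without WT no LIF replicate 2, the highest Smad6 library at 497, the Q418R difference in no LIF was -0.40 (0.577), and without WT no LIF replicate 1 it was -0.97 (0.0363). Bmp4 in no LIF was -0.77 ± 0.30 in Q418R against WT (limma adjusted p = 0.138, 0.0433 with that block, 95% interval -1.41 to -0.14), with 67.1 and 54.0 normalised counts in Q418R against 103 and 108 in WT. Id2 in LIF was -0.66 ± 0.29 in K365T against WT (limma adjusted p = 0.177, 0.0276 with that block, interval -1.29 to -0.02). The adjusted p of Smad6 and Id2 in K365T with that block can be too small, because K365T and WT lie in different pairs. For Id1 in no LIF the differences from WT were 0.21 in R342C (95% interval -0.62 to 1.04), -0.17 in K365T (-0.995 to 0.66) and 0.41 in Q418R (-0.42 to 1.24), so differences of such sizes could not be detected with 2 libraries a group. In R342C all 8 members lay between -0.37 and 0.21 of WT in no LIF and between -0.39 and 0.59 in LIF.

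No member's response to the medium differed from that of WT past the threshold (limma's interaction). The background of such differences was 0% of tested genes in R342C, 0.659% in K365T and 0.141% in Q418R. The largest were both in K365T: Msx2 at 1.16 ± 0.45 (adjusted p = 0.315 by limma) and Id4 at 1.09 ± 0.37 (0.227). These 2 were the members under an unadjusted p of 0.05 in K365T, and R342C and Q418R had 0 such members. Without K365T no LIF replicate 2 the Id4 difference was 1.57 (adjusted p = 0.0366). The different calls of Id4 and Msx2 in K365T and the other lines are therefore not shown to be a different response.

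Other genes of the BMP pathway, 64 in the table of which 52 were tested, also moved both ways between media. Of these, 21 were higher and 16 lower in no LIF in R342C, 17 and 10 in K365T, 21 and 9 in Q418R, and 20 and 17 in WT (limma). The share called was 71.2% in R342C, 51.9% in K365T, 57.7% in Q418R and 71.2% in WT. Of all tested genes it was 47.2%, 44.7%, 46.5% and 48.8% in the same lines. The list was assembled by role from general knowledge of the pathway, with earlier results of these data known, so its counts are a description. Genes named in each role were those with the largest WT differences and a mean of at least 100.

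**Figure D5:**
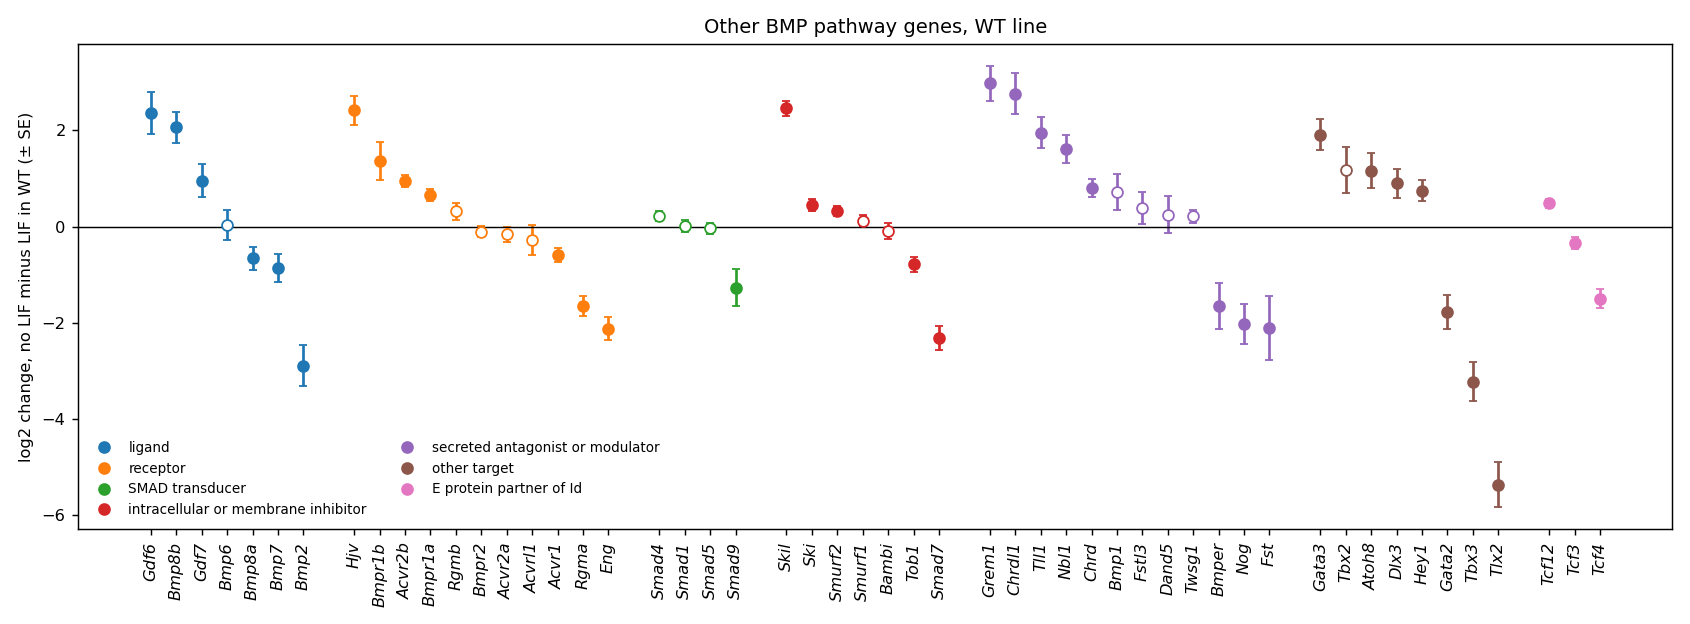
Log2 difference, no LIF minus LIF in WT, of the tested BMP pathway genes, by role (point, with its standard error from limma as the bar); filled points are past an adjusted p of 0.05 and open points are not. Tlx2 lies lowest at -5.37, Skil lies at 2.46 and Smad7 at -2.32, and Smad1, Smad5 and Smad4 are open between -0.04 and 0.22.

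Among 7 tested ligands, 3 were higher and 3 lower in WT. Counts by role, here and below, come from short lists. Of all tested genes, 23.8% were higher and 24.9% lower in WT. Bmp7, a ligand of the same family, fell in WT by 0.86 on the log2 scale (limma adjusted p = 0.0220), with 364.6 and 529 normalised counts in WT no LIF, against 685 and 938 in WT LIF. That call ended without WT no LIF replicate 1 (0.169) or WT LIF replicate 2 (0.171). A pair of ligands outside the naming rule, chosen after their values were seen, moved in opposite directions in all 4 lines: Bmp2 fell in WT, with 2.87 and 2.25 in no LIF, against 42.8 and 46.5 in LIF, and Bmp8b rose in WT, with 157 and 96.5 in no LIF, against 28.04 and 24.9 in LIF.

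Among 11 receptors and co-receptors, 4 were higher and 3 lower in WT. Eng, the co-receptor endoglin, differed by -2.12 between WT no LIF and WT LIF, Rgma, a BMP co-receptor, by -1.65, and Acvr2b, a type II receptor, by 0.95, with limma adjusted p of at most 1.50e-05. Of the 4 SMAD transducers, Smad1, Smad5 and Smad4 differed by 0.01, -0.04 and 0.22 in WT and did not pass the threshold, while Smad9, a low gene, was called lower. The TPM of Smad1 had a median of 19.3 in no LIF and 17.8 in LIF.

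Of 7 tested inhibitors inside the cell or in its membrane, 3 were higher and 2 lower in WT. Skil, which encodes the SMAD corepressor SnoN, had 12268 and 10523 normalised counts in WT no LIF, against 2055 and 2080.1 in WT LIF, a log2 difference of 2.46 ± 0.16. Smad7, the other inhibitory SMAD, had 1696 and 1193 in WT no LIF, against 7865 and 6413 in WT LIF, a difference of -2.32 ± 0.24. Over all lines Smad7 lay at 937 to 1957 in no LIF and at 5673 to 9557 in LIF, while Smad6 was called higher in 3 lines. Tob1, an antiproliferative protein that represses SMAD activity, differed by -0.79. Of the secreted antagonists, 5 of 12 were higher and 3 lower in WT. Follistatin (Fst), which binds activins and BMPs, differed by -2.10 (limma adjusted p = 0.0175, 0.107 without WT no LIF replicate 2 and 0.112 without WT LIF replicate 1), and chordin (Chrd), which binds BMP4, by 0.80 (0.00287).

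Among 8 further tested targets, 4 were higher and 3 lower in WT. Tlx2, a homeobox gene known as a BMP target in the mouse embryo, had 4.79 and 12.3 normalised counts in WT no LIF, against 628 and 383 in WT LIF, a log2 difference of -5.37. Tbx3, a T-box factor of naive stem cells, differed by -3.22 and Gata2, a zinc finger factor, by -1.78. These were the 3 called lower in WT. The 4 called higher, which the rule did not name, rose there as Id1, Id2, Id3 and Msx1 did. Of the E proteins, Tcf4 differed by -1.498, Tcf12 by 0.48 and Tcf3 by -0.34 in WT, the last at -0.15 (adjusted p = 0.405) without WT no LIF replicate 2 and -0.53 without WT no LIF replicate 1 (limma).

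Against WT, pathway genes passed the threshold in K365T (3 higher and 4 lower in LIF, 6 higher and 4 lower in no LIF) and in Q418R (0 higher and 1 lower in LIF, 4 higher and 1 lower in no LIF), and 0 did in R342C by limma in either medium, where 3 in LIF and 5 in no LIF were under an unadjusted p of 0.05. In K365T this was 13.5% of the 52 in LIF and 19.2% in no LIF, where 11.1% and 14.7% of all tested genes passed, and in Q418R it was 1.92% and 9.62%, where 4.25% and 6.15% passed, so the shares lay near the background. Leaving out 1 library gave 1 to 4 calls in K365T in LIF and 1 to 9 in no LIF. Bmpr2, the type II BMP receptor, was the one called in 3 comparisons. It had 3019 and 3385 normalised counts in K365T no LIF and 2799 and 2385 in Q418R no LIF, against 1706 and 1498 in WT no LIF, and 3343 and 3366 in K365T LIF, against 1661 and 1779 in WT LIF. The differences were 1.00 (limma adjusted p = 0.000265) in K365T no LIF, 0.69 (0.00385) in Q418R no LIF and 0.96 (0.000260) in K365T LIF. Genes within 5 Mb of Bmpr2 on chromosome 1 had medians of 0.47, 0.20 and 0.51 in the same comparisons, so part of the neighbourhood lay higher too; its part in the Bmpr2 values was not tested. With only the 2 groups in the fit the no LIF calls ended (0.172 in K365T, 0.156 in Q418R), and the Q418R call ended without Q418R no LIF replicate 1 (0.0530).

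In LIF, Gata2 had 415 and 163 normalised counts in K365T and 207 and 343 in Q418R, against 778 and 1136 in WT. The log2 differences were -1.84 in K365T (limma adjusted p = 0.00565) and -1.80 in Q418R (0.0125), and genes within 5 Mb had medians of -0.26 and -0.42. The K365T difference was -1.17 (0.0639) without K365T LIF replicate 2 and -1.56 (0.0659) without WT LIF replicate 2, and the Q418R difference -1.44 (0.164) without Q418R LIF replicate 1 and -1.53 (0.123) without WT LIF replicate 2. In no LIF, Fst had 120.1 and 768 in K365T, against 54.6 and 32.5 in WT, a difference of 2.74 (0.0156) that was 1.42 (0.143) without K365T no LIF replicate 2, the library with the highest mesoderm marker sum, and 2.40 (0.113) without WT no LIF replicate 2. Eng in K365T no LIF was 0.88 above WT (0.0242), and 0.50 (0.218) without that K365T library or 0.76 (0.155) without WT no LIF replicate 2. Tcf4 in K365T no LIF was 0.63 above WT (0.0452), and 0.51 (0.221) without the same K365T library, 0.26 (0.437) without WT no LIF replicate 2 and 1.00 without WT no LIF replicate 1.

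The remaining calls in K365T among genes with a mean of at least 100 were of at most 0.73 in size. Smurf2, a ubiquitin ligase of the pathway, was 0.45 above WT in each medium, where genes within 5 Mb on chromosome 11 had medians of 0.59 in no LIF and 0.56 in LIF, and Tob1 was 0.73 above WT in LIF, with a neighbouring median of 0.35. Acvr2b was -0.41 in no LIF and -0.49 in LIF, the co-receptor Rgmb -0.68 and -0.55, and the type I receptor Acvr1 -0.62 in LIF. These limma calls did not hold in every fit with 1 library left out, where a group has 1 library and the power is lower. That of Acvr2b ended without any 1 of its 4 libraries, at -0.32 to -0.50 in no LIF and -0.46 to -0.52 in LIF. So did that of Rgmb in LIF, at -0.48 to -0.62. Rgmb in no LIF ended at -0.44 without K365T no LIF replicate 2 and at -0.60 without WT no LIF replicate 2. Acvr1 ended without K365T LIF replicate 2 (difference -0.47) or either WT LIF library (-0.64 and -0.60). Smurf2 in no LIF ended without replicate 2 of K365T (0.40) or of WT (0.42). In LIF it ended without K365T replicate 2 (0.39) or either WT library (0.50 and 0.40). Tob1 ended without K365T LIF replicate 1 (0.61) or either WT LIF library (0.77 and 0.69). With all 16 libraries, other fits ended calls too. That of Rgmb in LIF ended by edgeR (adjusted p = 0.0619), on TPM (limma, 0.227) and in other fits, and held by DESeq2 (0.0234). On TPM the calls of Acvr2b (0.219 in LIF, 0.382 in no LIF), Acvr1 (0.0781) and Rgmb in no LIF (0.109) ended by limma. Each held by edgeR and DESeq2. With only the 2 groups in the fit, those of Acvr1 and, in no LIF, of Acvr2b, Rgmb and Smurf2 ended.

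The 5 other genes called against WT, all in no LIF, had a mean under 100 and larger differences; they lie outside the naming rule. Bmpr1b, a type I BMP receptor, had 28.4 and 52.4 normalised counts in K365T and 46.2 and 21.4 in Q418R, against 8.61 and 4.49 in WT. It was 2.05 above WT in K365T (limma adjusted p = 0.00485) and 1.79 in Q418R (0.0174). Tbx2, a T-box repressor, had 42.1 and 38.8 in K365T and 10.99 and 28.5 in Q418R, against 72.7 and 224 in WT, with differences of -1.58 in K365T (0.0398) and -2.58 in Q418R (0.00646). Grem1, which encodes the secreted BMP antagonist gremlin, was -1.20 in K365T (0.0399), the ligand Bmp6 was 1.26 in Q418R (0.0304), and Chrdl1, which encodes a chordin-like antagonist, was 1.76 in Q418R (0.0277). Each of these 7 calls ended without WT no LIF replicate 2, the library with the highest structural RNA share: Bmpr1b was then 1.76 (0.0539) in K365T and 1.5005 (0.165) in Q418R, Tbx2 was -0.79 (0.385) and -1.80 (0.0840), Grem1 -0.81 (0.306), Bmp6 1.11 (0.219) and Chrdl1 1.30 (0.267). By edgeR the Q418R calls of Bmpr1b (0.0526) and Chrdl1 (0.0667) and that of Grem1 (0.0763) were not made. The Q418R calls of Bmpr1b (0.199), Tbx2 (0.0883), Bmp6 (0.245) and Chrdl1 (0.193) also ended without Q418R no LIF replicate 1, and that of Chrdl1 without replicate 2 (0.0692). In K365T, the calls of Tbx2 (0.0764 and 0.140) and Grem1 (0.173 and 0.0622) ended without either K365T no LIF library.

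The genes most like each of the 6 members with a mean of at least 100, which leaves out Msx1 and Msx2, were sought over the 16 libraries. Likeness was Pearson's r of log2(normalised count + 4) among 11169 genes past the same minimum. Genes with clone names, such as Gm and Rik, were left out of these and of the counts below. The 16 libraries share 4 lines and 2 media and are not independent, so r is a description. Id1 was most like Jakmip2 (r = 0.992) and Sox11 (0.991), Id2 like Dusp4 (0.984), a phosphatase of MAP kinases, and Foxo4 (0.982), and Id3 like Pnp (0.986) and Dnmt3l (0.974), a cofactor of DNA methyltransferases. Bmp4 was most like Paxip1 (0.942) and Cops7a (0.931), and Smad6 like Atp6v0b (0.954) and Gfpt2 (0.951). Id4 was most like Pkn3 (0.835) and Kyat3 (0.829). Genes with r over 0.9 numbered 1059 for Id1, 905 for Id2, 424 for Id3, 85 for Bmp4, 57 for Smad6 and 0 for Id4. Within groups, the same replicate was the higher one for Id3 and Msx1 in 7 of 8 groups and for Id3 and Smad6 in 1 of 8. These were the extremes among all pairs of members, and the other pairs, Id1 and Id3 at 6 among them, had 2 to 6. Same-numbered libraries deviated together between some groups, so the groups are not independent, and these counts have no test.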

How the data were processed

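Total RNA (500 ng, stranded, ribosomal RNA depleted) was sequenced with 150 bp paired reads. The submitters' processing notes name Trim Galore, STAR, DESeq2 and mm10, without versions; the counting tool and annotation are not given in the sources used here. One deposited table gives a signal that the authors call normalised counts, in which each library has its own scale factor, and another gives TPM computed by the authors. Division by the value of 1 read, 0.779 to 1.19 normalised counts, made 100% of values whole within 0.05, which gave read counts for edgeR 4.0.16 and DESeq2 1.42.0.

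Log2(normalised count + 4) was fitted with limma 3.58.1 (trend) in R 4.3.3, with 1 mean for each of 8 groups and 8 residual degrees of freedom, over the 17757 genes with a mean of at least 10 (37742 of 55291 had a value above 0). P was adjusted by Benjamini-Hochberg over these genes, threshold 0.05, in 13 contrasts. Pathway genes named were up to 3 per role with the largest WT difference between media and a mean of at least 100, and each with such a mean called between a mutant and WT. Members and lists were chosen with earlier results of these data known. Alternatives were pseudocounts of 1 and 16, filters, TPM, other scalings, edgeR, DESeq2, the contrast's groups alone, replicate blocks and each library left out. A fit without a library leaves 1 in its group and has less power, so a call can end there although the difference stays. Same-numbered libraries deviated together within each line (r = 0.36 to 0.42 between its 2 media), between R342C and K365T (0.18 to 0.54) and between Q418R and WT (0.24 to 0.42), but across these sets in 2 of 16 pairs of groups (r over 0.1). The labels name no shared batch. Blocks within each line and within the 2 pairs of lines were added after the data were seen. GENCODE M21 gave 1 position for 53186 genes.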

Additional observations from a re-analysis of the deposited data

How the results depend on the processing

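The calls of Id1, Id2, Msx1 and Msx2 between media, and the lack of one for Msx2 in K365T, were the same under every alternative run. So was the direction of each other member's difference between media, except Id4 in K365T. That was -0.042 without K365T no LIF replicate 1 and 0.94 without K365T no LIF replicate 2. The count of members called between K365T and WT was 2 by DESeq2 in LIF against 1 by limma, and 0 in no LIF with no filter on low genes or with only the contrast's groups; in Q418R in no LIF it was 1 by DESeq2 against 0. Leaving out 1 library gave 0 to 1 members called in K365T in LIF, 0 to 2 in no LIF, 0 to 1 for its interaction and 0 to 1 in Q418R in no LIF, and between media 4 to 6 in K365T, 6 to 7 in Q418R, 5 to 6 in R342C and 5 to 7 in WT. Pathway genes called between K365T and WT in LIF numbered 4 on TPM against 7, and in no LIF 5 with no filter and 0 with only the contrast's groups against 10. Between media in K365T they numbered 16 with a mean of at least 50, against 27. In Q418R they numbered 3 by DESeq2 in LIF against 1, and in no LIF 2 with a mean of at least 50, 3 with no filter, 8 with upper quartile scaling, 3 by edgeR, 8 by DESeq2 and 0 with only the contrast's groups, against 5. In R342C in LIF TPM gave 1 against 0. Leaving out 1 library gave 1 to 4 pathway genes in K365T in LIF, 1 to 9 in no LIF, 0 to 2 for its interaction, 0 to 2 in Q418R in LIF, 1 to 7 in no LIF and 0 to 1 in R342C in no LIF. Apart from 2 comparisons with the block within pairs of lines, the share of all tested genes was not taken under the alternatives. Counts under them, here and below, thus have no background. The causes were not tested.

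Same-numbered libraries of different groups deviated together in 14 of 28 pairs of groups (r over 0.1) and oppositely in 7, with r from -0.52 to 0.54. All 4 pairs between R342C and K365T and all 4 between Q418R and WT were over 0.1, against 2 of 4 between R342C and Q418R and 0 of 4 in each of the other combinations of lines, so a single block over all groups does not follow the deviations. With the replicate number as a block over all groups, the members called were 7 in R342C, 6 in K365T, 7 in Q418R and 7 in WT between media and 1 in each medium in K365T against WT, and the calls of Rgmb in K365T LIF (0.0556) and Tcf4 in K365T no LIF (0.0514) ended. With a block within each line, WT had 8 members called between media, pathway genes called in the K365T interaction numbered 2 by that block and 2 by DESeq2 against 0, and no other call of a member changed. With a block within the 2 pairs of lines, members called numbered 3 in K365T in LIF against 1, 2 in Q418R in no LIF against 0 and 8 in WT between media against 7, and pathway genes 4 against 1 in Q418R in LIF, 13 against 5 in no LIF, 1 against 0 in R342C in LIF and 2 against 0 in the K365T interaction. R342C and K365T lie in another pair than WT, so their calls against WT within a medium can be too many in that fit. On the TPM scale the median of all genes lay at 0.11 to 0.19 in log2 in each mutant against WT except Q418R in LIF (0.07), at 0.13 between media in Q418R and at 0.12 in the Q418R interaction. It lay at 0.02 to 0.06 in the other contrasts of media and interactions. With 2 libraries a group, both their number and their depth limit the precision.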
